A study of Mus musculus with 24 samples.

Results

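The genes described here were Prrx1, Prrx2, Shox2, Alx1 and Alx4, 5 of the 22270 protein-coding genes of the mouse annotation. They were chosen as Prrx1, the gene that the study deleted, its paralogue Prrx2 and 3 relatives of the same paired-type homeobox class. Each gene was read over its body on the mm9 genome (NCBIM37) with 10 kb on each side, called its window below. The data were peak lists of chromatin immunoprecipitation sequencing (ChIP-seq) from cultured mouse fibroblasts, in which each list gives places where an antibody enriched DNA over the matching input. The series held 24 samples, of which 7 were inputs and 17 had a peak list: 7 of H3K27ac, 7 of H3K4me3 and 3 of the PRRX1 protein, 1 library per group. The 3 fibroblast types were mouse embryonic fibroblasts (MEF, strain C57BL/6, embryos of E10 to E13), fibroblasts of MMTV-PyMT breast tumours (MMTV_CAF in the labels, strain FVB/NJ, written MMTV-CAF) and skin fibroblasts taken at day 10 from wounds of the back (Wound_healing_fibroblast in the labels, strain C57BL/6). All were immortalised with HPV E6/E7 and grown in serum, in wild-type (WT) and Prrx1-deleted form. SG cells carried a CRISPR/Cas9 guide against Prrx1, which the study placed in the first exon, with the non-targeting guide sgNS named as the WT control. KI cells, made only as MEF, are not spelled out in the labels, which name the mutant strain 129S-Prrx1tm1Jfm/Mmmh. The study describes this allele as lacZ inserted within the homeodomain part of exon 2, on a C57BL6 background. Whether a line was a clone, a pool or from several animals is not given in the sources used here, and with 1 library per group no spread between replicates could be measured, so every comparison below describes individual libraries.

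Paired-type homeobox proteins are transcription factors that bind short AT-rich DNA containing TAAT, often as pairs on the palindrome TAATTA or on copies a few bases apart. Prrx1 and Prrx2 act together in the mesenchyme of limb and face, Shox2 shapes proximal limb bones and the pacemaker region of the heart, and Alx1 and Alx4 pattern the face and skull. Trimethylation of histone H3 at lysine 4 (H3K4me3) marks active or poised promoters and spreads widely at genes of cell identity, while acetylation at lysine 27 (H3K27ac) marks active promoters and enhancers.

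The PRRX1 protein had summits beside the genes that encode it and its paralogue, and the sequences below show these places because each of the first pair held a summit in every fibroblast type. They are given on the forward strand of mm9, 5′ to 3′, with TAATTA in capitals. The Prrx1 upstream window is chr1:165244992-165245102, with summits 1.18 to 1.23 kb before the first transcription start site (TSS) of Prrx1, which lies on the reverse strand. The Prrx2 upstream window is chr2:30689312-30689400, with summits 1.12 to 1.15 kb before the first TSS of Prrx2, which lies on the forward strand. The Shox2 upstream window, chr3:66786214-66786314, held a summit in MMTV-CAF alone and had 2 copies of the letters. The Shox2 intron window, chr3:66784156-66784273, held summits in MMTV-CAF and wound-healing fibroblasts and had none. The Prrx1 exon 1 stretch, chr1:165243686-165243715, lay in the 5′ untranslated part of that exon beside summits of MEF and MMTV-CAF.
Prrx1 upstream: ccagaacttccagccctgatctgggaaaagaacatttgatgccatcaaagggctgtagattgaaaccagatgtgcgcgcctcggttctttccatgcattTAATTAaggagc
Prrx2 upstream: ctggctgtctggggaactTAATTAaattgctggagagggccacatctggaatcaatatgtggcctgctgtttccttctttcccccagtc
Shox2 upstream: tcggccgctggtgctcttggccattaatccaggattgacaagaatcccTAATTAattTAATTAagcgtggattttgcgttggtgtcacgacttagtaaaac
Shox2 intron: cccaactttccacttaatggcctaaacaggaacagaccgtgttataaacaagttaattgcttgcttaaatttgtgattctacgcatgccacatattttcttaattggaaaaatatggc
Prrx1 exon 1: aataggagcctgTAATTAcgtggcaaagcc

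The lists differed in size and strength. H3K27ac lists held 29325 to 61603 summits of 1 bp, H3K4me3 lists 13125 to 29166 regions, and PRRX1 lists 3048 (MEF), 8000 (MMTV-CAF) and 5698 (wound-healing) summits, and sequencing depth could not be read from them. The MEF KI lists were the smallest of both marks, and in MEF KI the median gene had 0.312 times the summed H3K27ac strength and 0.796 times the H3K4me3 width of MEF WT. For that reason ratios were divided by the median ratio over all genes listed in both libraries, which gives the scaled ratio, and an unscaled ratio is added where it changes a call. A difference was called when the scaled ratio passed 1.5-fold or when a gene was listed in 1 library alone. An H3K4me3 region lay over a TSS of 5 to 9 of 10 fibroblast marker genes per library, with Col1a1, Col1a2, Fbn1, Pdgfra and Pdgfrb in all 7. The lowest count was that of wound-healing SG, where Col6a3 and Thy1, listed in its WT, were not. Of the markers of other cell types, Cdh1 had a region of 333 to 783 bp in 4 libraries, Kdr, an endothelial gene, had 5528 bp in wound-healing WT, 6173 bp in wound-healing SG and at most 1161 bp elsewhere, and the leukocyte and muscle markers found had none. The part of these marker differences in the results below was not tested. A mark carried by fewer cells and a weaker mark in every cell cannot be told apart in such lists.

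H3K4me3 covered an annotated TSS of Prrx1, Prrx2 and Shox2 in all 7 libraries and one of Alx1 and Alx4 in 3 and 2 of them. Of the 5 genes, a region lay over a TSS of 4 for MEF WT, 3 for MEF KI, 4 for MEF SG, 3 for MMTV-CAF WT, 4 for MMTV-CAF SG, 3 for wound-healing WT and 5 for wound-healing SG. Over all genes the share with a region was 53.1%, 41.5%, 51.4%, 52.4%, 53.0%, 54.7% and 55.3%, in the same order. The plot of widths shows Prrx1 above the other 4 genes in each library except wound-healing SG, where Alx4 was wider.

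**Figure D1:**
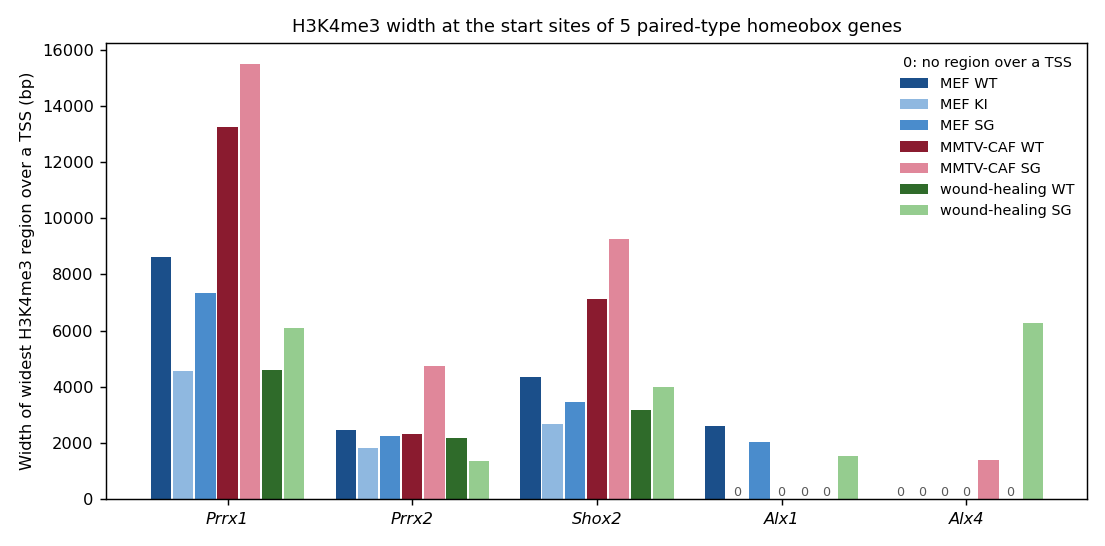
Width in bp of the widest H3K4me3 region over an annotated TSS of each gene, 1 bar per library, with 0 where no region lay over a TSS. Prrx1 ran from 4558 bp in MEF KI to 15484 bp in MMTV-CAF SG, and Alx4 had its widest region, 6286 bp, in wound-healing SG.

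At Prrx1 (ENSMUSG00000026586.8, chr1:165175247-165243841, reverse strand) the promoter region was 8628 bp wide in MEF WT, 13259 bp in MMTV-CAF WT and 4606 bp in wound-healing WT. In the deleted libraries it was 4558 bp in MEF KI, 7341 bp in MEF SG, 15484 bp in MMTV-CAF SG and 6092 bp in wound-healing SG. Among genes with a region over a TSS these widths stood between the 95.1 percentile, in wound-healing WT, and the 99.8 percentile, in MMTV-CAF SG. The region ranked 28 by width of the 16089 in MEF WT and 14 of the 29166 in MMTV-CAF SG. Its fold over input was 10.3 in MMTV-CAF WT, above 7.20 in wound-healing WT and 6.76 in MEF WT. In wound-healing WT Prrx1 was 2.08-fold narrower than in MMTV-CAF WT and 1.798-fold narrower than in MEF WT after scaling, while MMTV-CAF WT and MEF WT differed by 1.16-fold.

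H3K4me3 at Prrx1 also lay far inside the gene in MMTV-CAF. The window held 11 regions with a summed width of 29332 bp in MMTV-CAF WT and 7 regions with 30891 bp in MMTV-CAF SG. In MEF WT it held 2 regions with 8850 bp, and in wound-healing WT the promoter region alone. The regions of MMTV-CAF WT other than the promoter had a −log10 p of 3.55 to 6.10, below the median of 7.51 of its list, which was also longer, with 27339 regions against 16089 for MEF WT. A minimum of 10 would leave the promoter region alone. In MMTV-CAF SG another region of 11715 bp lay 19838 to 31552 bp after the first TSS, across an internal TSS at 24486 bp, where MMTV-CAF WT had separate regions of 3916, 1917 and 1346 bp and part of one of 2573 bp. These internal regions were weaker than the promoter, with a fold of 3.09 for the widest one in MMTV-CAF SG against 9.28 at the promoter.

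**Figure D2:**
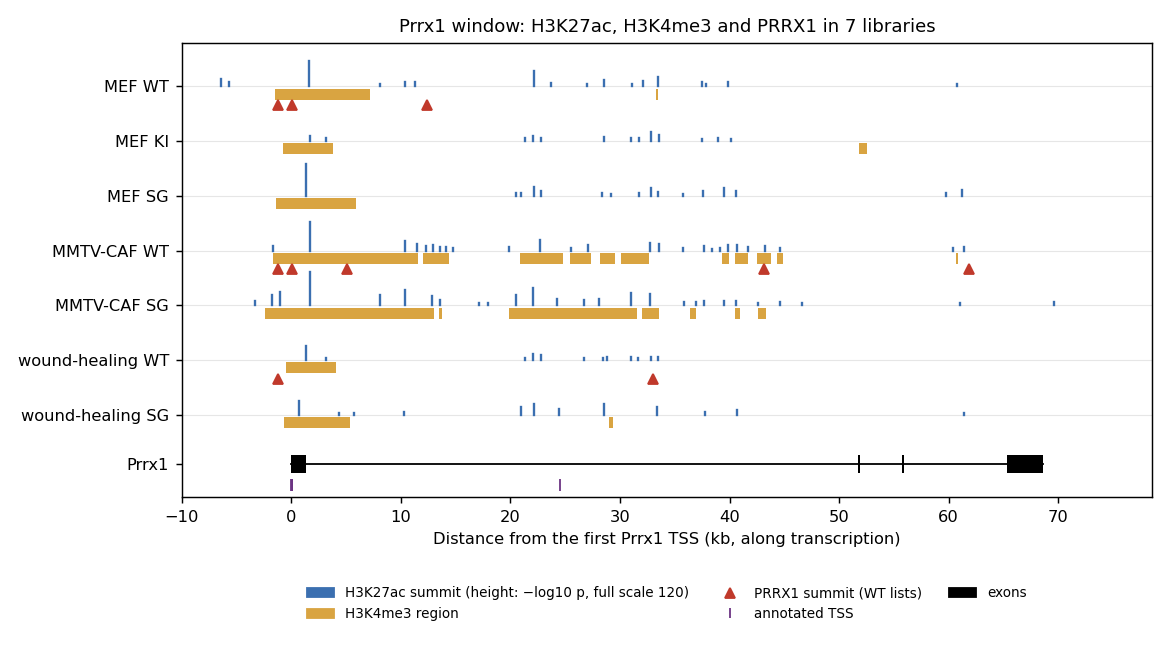
Marks in the Prrx1 window by distance in kb from its first TSS, along transcription, with 1 row per library: H3K27ac summits as blue lines scaled by −log10 p, H3K4me3 regions as orange bars, PRRX1 summits of the WT lists as red triangles, exons in black and annotated TSSs as purple ticks. The 708-bp H3K4me3 region 51824 to 52531 bp after the TSS overlaps 47 bases of exon 2, lies otherwise in the next intron and is drawn in MEF KI alone.

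The MEF KI library had an H3K4me3 region at the exon in which the lacZ insertion was made. This region was 708 bp wide (chr1:165191310-165192017), with a fold of 4.97 and a −log10 p of 7.22, and covered 47 bases of exon 2. It lay 51824 to 52531 bp after the first TSS. In the other libraries the nearest region to exon 2 was 18.2 kb away in MEF WT, 45.8 kb in MEF SG, 6.82 kb in MMTV-CAF WT, 8.37 kb in MMTV-CAF SG, 47.6 kb in wound-healing WT and 22.4 kb in wound-healing SG. Regions seen in MEF KI and in no other library were few, 106 of 13125 or 0.808%, and this one ranked 6 among them by fold, 13 by −log10 p and 28 by width. Among all MEF KI regions it ranked 9845 by −log10 p. No H3K27ac summit lay within 1 kb of exon 2 in any of the 7 libraries. The exon is printed on the reverse strand of mm9, the strand of Prrx1, from chr1:165191971-165192146, with the bases under the MEF KI region in capitals. It is the reference sequence and shows none of the insertion.
Prrx1 exon 2: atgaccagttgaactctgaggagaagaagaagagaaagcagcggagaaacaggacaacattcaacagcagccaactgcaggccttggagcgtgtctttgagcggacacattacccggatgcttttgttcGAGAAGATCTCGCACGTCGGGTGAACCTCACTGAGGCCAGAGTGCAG
Exon 1, where the SG guide was placed, was under the promoter region in 7 of 7 libraries. The peak lists give no transcript level, so the marks do not measure how much Prrx1 product was lost.

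H3K27ac in the Prrx1 window was spread over the promoter and the long first intron. MEF WT had 17 summits with a summed −log10 p of 376, MEF KI 13 with 190.2, MEF SG 16 with 352, MMTV-CAF WT 26 with 519.5, MMTV-CAF SG 27 with 747, wound-healing WT 12 with 175 and wound-healing SG 12 with 261. Among genes with a summit the sum stood between the 94.7 percentile, in wound-healing WT, and the 99.4 percentile, in MMTV-CAF SG, a rank on sums that grow with the length of the window, 88.6 kb here. Per kb of window it was 1.98 in wound-healing WT, against a median of 1.12 over genes with a summit, and 8.43 in MMTV-CAF SG, against 2.33. The strongest summit lay 1332 to 1741 bp after the first TSS in 5 libraries, with a −log10 p of 91.7 in MEF WT, 113 in MEF SG, 102 in MMTV-CAF WT, 117 in MMTV-CAF SG and a lower 49.1 in wound-healing WT. In wound-healing SG it lay 672 bp after the TSS with 49.6, and in MEF KI the strongest summit was inside the intron, 32806 bp after the TSS, with 33.9.

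The summed H3K27ac of Prrx1 differed from WT by little more than the 1.5-fold limit in any deleted library after scaling. Its unscaled ratio to WT of the same type was 0.506 for MEF KI, 0.937 for MEF SG, 1.44 for MMTV-CAF SG and 1.49 for wound-healing SG. After scaling, MEF KI was 1.62-fold higher and MEF SG 1.51-fold lower, at the edge of the call, and the other libraries were within 1.5-fold. The direction in MEF KI thus turned with the scaling, which divides by the median ratio of 0.312 in that library. Counting WT summits of the window with a summit in the deleted library at most 500 bp away gave 9 of 17 for MEF KI, 9 of 17 for MEF SG, 14 of 26 for MMTV-CAF SG and 5 of 12 for wound-healing SG. These are 52.9%, 52.9%, 53.8% and 41.7%, beside 47.4%, 71.4%, 65.9% and 68.1% over all gene windows. Joining summits within 500 bp into places, the place around 22091 bp after the TSS was in 6 libraries, with a −log10 p of 54.3 for MEF WT, 18.6 for MEF KI and 30.9 for MEF SG. It had 62.1 in MMTV-CAF SG, 21.2 in wound-healing WT and 37.4 in wound-healing SG, and the nearest summit in MMTV-CAF WT lay at 22658 bp with 37.8.

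At Prrx2 (ENSMUSG00000039476.6, chr2:30690492-30736761, forward strand), the paralogue that overlaps Prrx1 in function, H3K4me3 did not cover the first annotated TSS in any library. It lay instead over the start site 10472 bp further on, inside the first intron of the longest transcript, and in 5 libraries also over the one at 10087 bp. The width there was 2453 bp in MEF WT, 1810 bp in MEF KI, 2241 bp in MEF SG, 2297 bp in MMTV-CAF WT, 4723 bp in MMTV-CAF SG, 2153 bp in wound-healing WT and 1362 bp in wound-healing SG. After scaling, Prrx2 was 2.14-fold wider in MMTV-CAF SG than in its WT and 1.79-fold narrower in wound-healing SG than in its WT, and both MEF libraries were within 1.08-fold of WT. In MMTV-CAF SG the fold of this region was 8.93 against 6.90 in WT, and in wound-healing SG 5.27 against 6.21. The region had a −log10 p of 7.54 in MEF KI and 7.76 in wound-healing SG. With a minimum of 10 it was no longer listed in these libraries, and Prrx2 was called lost in both.

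H3K27ac at Prrx2 differed from WT in the same direction as H3K4me3 in each of these SG libraries. The window had 14 summits with a summed −log10 p of 414 in MEF WT, 9 with 117 in MEF KI, 13 with 501 in MEF SG, 8 with 255 in MMTV-CAF WT, 19 with 581 in MMTV-CAF SG, 6 with 98.6 in wound-healing WT and 3 with 79.2 in wound-healing SG. After scaling, MMTV-CAF SG was 1.93-fold higher and wound-healing SG 1.87-fold lower than WT, while MEF KI and MEF SG were within 1.5-fold. Without scaling the call in wound-healing SG ended, at a ratio of 0.803, MMTV-CAF SG stayed higher at 2.28, and MEF KI was lower at 0.284. In wound-healing SG fewer fibroblast markers carried H3K4me3 than in its WT, 5 against 7 of 10, and their part in the Prrx2 values was not tested. Part of this signal lay in a neighbour, Asb6, whose TSS is 4.64 kb before that of Prrx2 and whose body held 1 summit of the window in 6 libraries and 2 in wound-healing SG, the main one under an H3K4me3 region in all 7. These made up 8.48% of the sum in MEF KI and 73.3% in wound-healing SG. With summits over Asb6 and Ptges, or within 1 kb of them, left out, a choice made after the data were seen, the sum was 508 against 184 in MMTV-CAF and 21.2 against 65.4 in wound-healing fibroblasts. That is 2.33-fold higher and 4.64-fold lower after scaling, from 18 against 7 and from 1 against 5 summits.

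The H3K27ac places at Prrx2 show which elements this covers. The place 30008 bp after the TSS, in the first intron, was in all 7 libraries, with a −log10 p of 75.2 for MEF WT, 18.4 for MEF KI, 102 for MEF SG, 81.0 for MMTV-CAF WT, 111 for MMTV-CAF SG, 22.3 for wound-healing WT and 21.2 for wound-healing SG. H3K4me3 lay over it in 5 libraries. The place at the start sites under H3K4me3, 10924 bp after the first TSS, had 47.1, 14.1, 52.7, 20.4, 60.3 and 17.2 in the first 6 of these libraries and no summit in wound-healing SG. Of the 8 summits of MMTV-CAF WT in the Prrx2 window 6 had one within 500 bp in SG, beside 65.9% over all gene windows. Of the 6 of wound-healing WT 2 had one, beside 68.1%. Both counts include the summit inside Asb6, which had one in SG in either type.

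**Figure D3:**
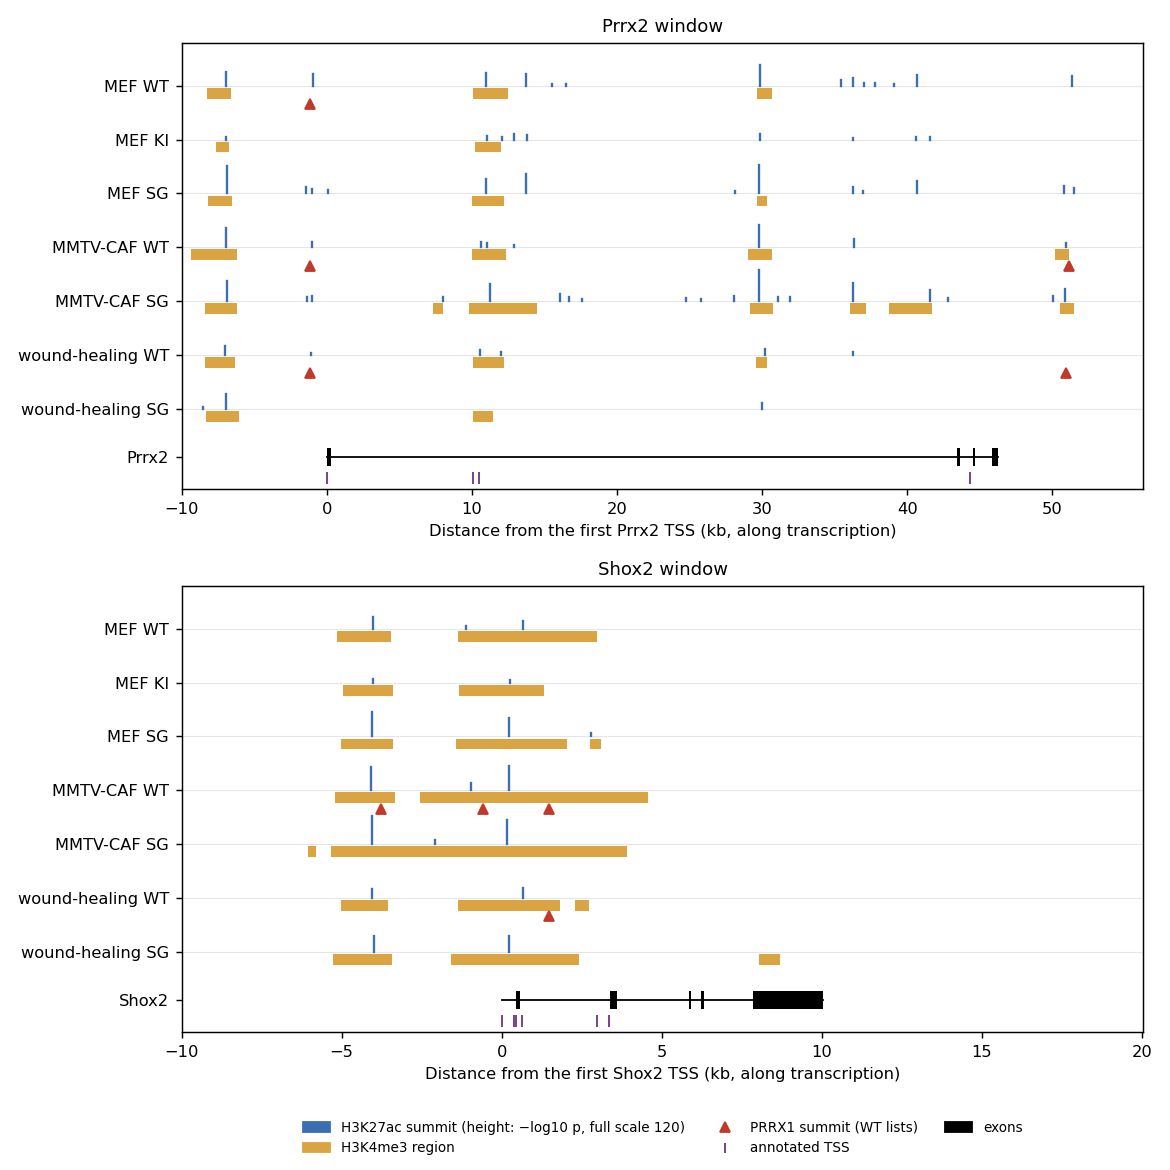
Marks in the Prrx2 window (upper) and the Shox2 window (lower) by distance in kb from the first TSS of each gene, along transcription, with 1 row per library. Blue lines are H3K27ac summits scaled by −log10 p, orange bars H3K4me3 regions, red triangles PRRX1 summits of the WT lists, black boxes exons and purple ticks annotated TSSs. The PRRX1 summits 1.12 to 1.15 kb before the first Prrx2 TSS recur in all 3 types, and the H3K4me3 region at Shox2 reaches 9256 bp in MMTV-CAF SG.

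Shox2 (ENSMUSG00000027833.8, chr3:66775649-66785693, reverse strand) carried the widest H3K4me3 region after Prrx1 in 6 of the 7 libraries. The width was 4350 bp in MEF WT, 2669 bp in MEF KI, 3452 bp in MEF SG, 7139 bp in MMTV-CAF WT, 9256 bp in MMTV-CAF SG, 3174 bp in wound-healing WT and 3988 bp in wound-healing SG. It was narrower than WT in both deleted MEF libraries and wider in both other SG libraries, yet after scaling each difference was within 1.5-fold, the largest being 1.35-fold in MMTV-CAF SG. Unscaled, the ratio for MEF KI was 0.614, past the limit. Between WT types it was 1.63-fold narrower in wound-healing fibroblasts than in MMTV-CAF after scaling. Rsrc1, a splicing-related gene, starts 0.381 kb inside Shox2 on the opposite strand and runs over the sequence upstream of Shox2, so marks at this promoter cannot be told apart between these genes.

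H3K27ac at Shox2 was made of 2 or 3 summits per library, near the start, with a −log10 p from 8.54 in MEF WT to 99.2 in MMTV-CAF SG. There were 3 with a summed −log10 p of 80.4 in MEF WT, 2 with 24.4 in MEF KI, 3 with 164 in MEF SG, 3 with 199 in MMTV-CAF WT, 3 with 200.1 in MMTV-CAF SG, 2 with 67.7 in wound-healing WT and 2 with 114 in wound-healing SG. The scaled ratios to WT were all within 1.5-fold, whereas the unscaled ones passed it at 0.304 for MEF KI, 2.04 for MEF SG and 1.68 for wound-healing SG. After scaling, MMTV-CAF WT was 1.99-fold higher than MEF WT. Places at 419 and -4043 bp from the TSS, the latter inside Rsrc1, had a summit in each of the 7 libraries. Per kb of window, the scale on which genes can be compared, Shox2 had a sum of 6.63 in MMTV-CAF WT, Prrx1 5.86 and Prrx2 3.84, against a median of 1.97 over genes with a summit. In MEF WT the order was Prrx2 at 6.25, Prrx1 at 4.24 and Shox2 at 2.68, against a median of 1.60.

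**Figure D4:**
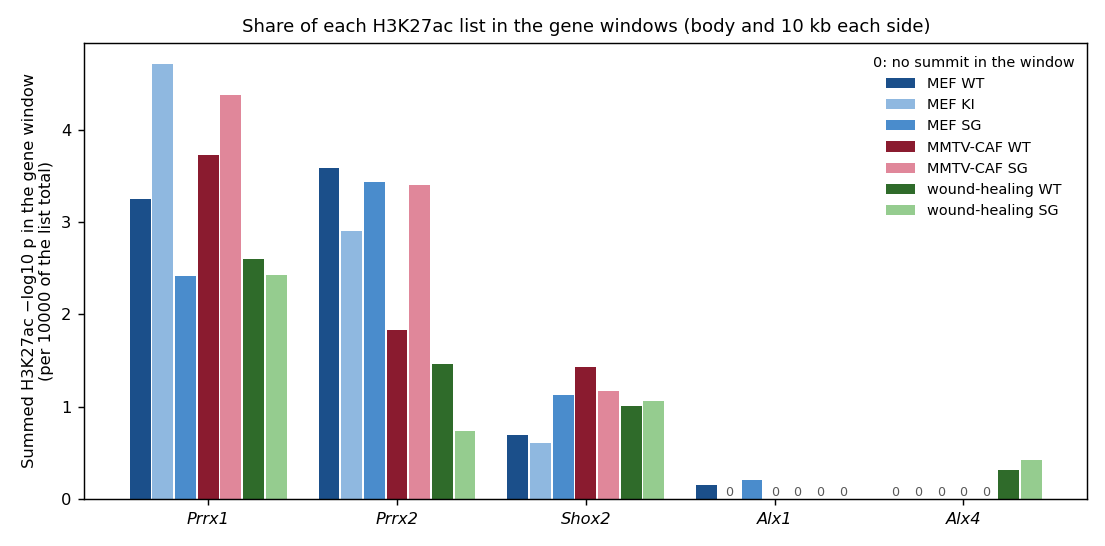
Summed H3K27ac −log10 p in each gene window per 10000 of the total of its list, 1 bar per library, with 0 where the window had no summit. Prrx1 lies between 2.41 in MEF SG and 4.71 in MEF KI, Prrx2 is lowest in wound-healing SG at 0.737, and Alx1 and Alx4 have summits in 2 libraries each.

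Alx1 (ENSMUSG00000036602.6, chr10:102470481-102491685, reverse strand), a factor of the face, had H3K4me3 in MEF WT, MEF SG and both wound-healing libraries. The mark covered a TSS with 2600 bp in MEF WT and 2034 bp in MEF SG, and none was listed in MEF KI or in either MMTV-CAF library. Wound-healing SG had 1534 bp over a TSS. Wound-healing WT had a region of 636 bp that lay 124 bp from the nearest TSS and so was not counted. Counted within 1 kb of a TSS, Alx1 was 2.12-fold wider in wound-healing SG than in its WT after scaling. The window had 1 H3K27ac summit in MEF WT, with a −log10 p of 17.1, and 1 in MEF SG, with 29.997, both within 1 kb of the first TSS, and none in the other 5 libraries. The ratio of MEF SG to WT was 1.25 after scaling and 1.76 before it, past the limit.

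Alx4 (ENSMUSG00000040310.6, chr2:93482541-93521496, forward strand), its relative in skull and limb patterning, was marked mainly in wound-healing fibroblasts. No H3K4me3 region lay over its TSS in any MEF library or in MMTV-CAF WT. MMTV-CAF SG had 1399 bp with a fold of 3.94, a narrow region at the 8.10 percentile of genes with one. It was no longer listed with regions of a −log10 p of at least 10 or with lists of equal size, which ends its call as gained. Wound-healing WT had 3 regions inside the gene, of 2129, 1255 and 338 bp, the first starting 90 bp after the TSS, and wound-healing SG had 1 region of 6286 bp across the same stretch and over the TSS. Within 1 kb of a TSS the width was 2129 bp in WT and 6286 bp in SG, 2.60-fold wider after scaling. H3K27ac at Alx4 had 2 summits with a sum of 20.8 in wound-healing WT and 4 with 45.5 in wound-healing SG, a scaled ratio of 1.46, within the 1.5-fold limit, and an unscaled one of 2.19, past it. The wound-healing SG regions of Alx1 and Alx4 were weak, with a −log10 p of 9.08 and 9.41. The widest Alx4 region of WT had a −log10 p of 13.3 and a fold of 5.96, against a fold of 5.84 in SG, so the wider mark was not a stronger one.

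Over the 5 genes, deletion gave no shared direction for either mark. In MEF KI, H3K4me3 was narrower or lost at 2 genes, Prrx1 (1.51-fold) and Alx1, and wider at none, against 31.1% and 1.88% of all genes listed. The Prrx1 call was at the limit and ended at 0.688 with widths summed within 1 kb of a TSS, and with a fold of 2. In MEF SG no gene was called in either direction, against 7.58% narrower and 1.66% wider. In MMTV-CAF SG, Prrx2 and Alx4 were wider or gained and none was narrower, against 8.80% and 7.10%. In wound-healing SG, Alx1 and Alx4 were wider or gained and Prrx2 was narrower, against 9.05% and 5.43%. The Alx1 and Alx4 calls there ended with regions of a −log10 p of at least 10, where neither library had a region over a TSS of these genes. With so few genes these counts are read beside the background only.

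For H3K27ac, Prrx1, Prrx2 and Alx1 were called in at least 1 deleted library, with Prrx1 and Prrx2 each called in both directions after scaling. Unscaled, the upward Prrx1 call in MEF KI turned to 0.506, the downward Prrx1 call in MEF SG ended at 0.937 and the downward Prrx2 call in wound-healing SG ended at 0.803. In MEF KI, Prrx1 was higher and Alx1 lost its summit, against 20.7% of genes higher and 35.5% lower. In MEF SG, Prrx1 was lower and none was higher, against 15.6% and 17.0%. In MMTV-CAF SG, Prrx2 was higher and none was lower, against 20.9% and 15.3%. In wound-healing SG, Prrx2 was lower and none was higher, against 13.7% and 22.5%. Both marks were called in the same direction for Prrx2, upward in MMTV-CAF SG and downward in wound-healing SG, and for Alx1 in MEF KI, where both were lost. Prrx1 in MEF KI was called in opposite directions, with H3K4me3 narrower at a scaled ratio of 0.664 and H3K27ac higher at 1.62. Among genes listed in both libraries the Prrx2 H3K4me3 ratio stood at the 98.2 percentile in MMTV-CAF and the 1.45 percentile in wound-healing fibroblasts.

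**Figure D5:**
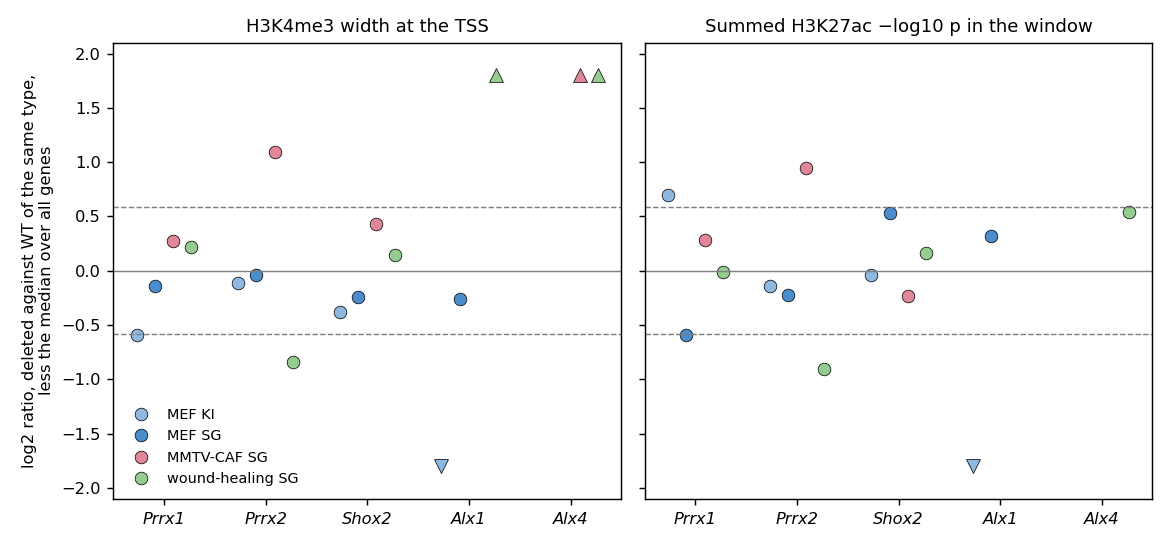
Log2 ratio of each Prrx1-deleted library to WT of the same fibroblast type, less the median over all genes, for H3K4me3 width (left) and summed H3K27ac −log10 p (right), 1 point per gene and library, with dashed lines at the 1.5-fold limit. Triangles at the edge, not to scale, mark genes listed in 1 of the libraries alone. Prrx2 lies above the limit in MMTV-CAF SG and below it in wound-healing SG in both panels.

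Between WT types, the called genes were fewer for H3K4me3. MMTV-CAF against MEF had Alx1 lost, against 10.4% of genes narrower or lost, and none wider, against 12.1%. Wound-healing fibroblasts against MEF had Prrx1 narrower and Alx1 without a region over a TSS, against 6.90%, and none wider, against 9.72%. Wound-healing fibroblasts against MMTV-CAF had Prrx1 and Shox2 narrower, against 11.8%, and none wider, against 13.3%. With regions within 1 kb of a TSS counted, wound-healing WT had 636 bp at Alx1 and 2129 bp at Alx4. Alx1 was then narrower than in MEF at a scaled ratio of 0.255 and gained against MMTV-CAF, Alx4 was gained against both, and the Shox2 call ended at 0.704. Prrx1 in MMTV-CAF WT was then wider than in MEF WT, with 19092 against 8628 bp and a scaled ratio of 1.67, through internal regions of a −log10 p of at most 6.10. For H3K27ac, Prrx2 was 2.03-fold lower in MMTV-CAF and 2.88-fold lower in wound-healing fibroblasts than in MEF after scaling. In MMTV-CAF against MEF, 2 genes were lower or lost (Prrx2 and Alx1) and Shox2 was higher, against 20.9% and 21.5%. In wound-healing fibroblasts against MEF, Prrx2 and Alx1 were lower or lost and Alx4 was gained, against 24.7% and 15.6%. Against MMTV-CAF, Prrx1 and Shox2 were lower in wound-healing fibroblasts and Alx4 was gained, against 25.2% and 17.0%. The Prrx1 and Shox2 calls there held in 6 of 8 settings each, and that of Shox2 ended at 0.728 with the gene body alone. The Shox2 call in MMTV-CAF against MEF also held in 6 of 8, and the H3K27ac calls of Prrx2, Alx1 and Alx4 between WT types in 8 of 8. These 3 comparisons share their WT libraries. Without scaling, H3K4me3 in MMTV-CAF WT also passed the limit over MEF WT at Prrx1, with 1.54, and at Shox2, with 1.64. H3K27ac in wound-healing WT was then also lower than in MEF WT at Prrx1, with 0.466, and than in MMTV-CAF WT at Prrx2, with 0.387.

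Over the 5 windows, the WT H3K27ac summits that had one at most 500 bp away in the deleted library of the same type, called retained, were 17 of 35 for MEF KI, which is 48.6% (95% Wilson interval 33.0 to 64.4) beside 47.4% over all gene windows. For MEF SG 21 of 35 were retained, which is 60.0% (43.6 to 74.4) beside 71.4%. For MMTV-CAF SG 22 of 37 were retained, which is 59.5% (43.5 to 73.7) beside 65.9%. For wound-healing SG 10 of 22 were retained, which is 45.5% (26.9 to 65.3) beside 68.1%, a share above that interval. With WT summits of a −log10 p of at least 10 it was 61.5% (35.5 to 82.3) beside 73.9%, a share inside the interval. Within 250 bp it was 31.8% (16.4 to 52.7) beside 57.6%, and within 1 kb 63.6% (43.0 to 80.3) beside 84.3%. With lists of equal size it was 42.1% (23.1 to 63.7) beside 65.5%, and in each of these settings the share lay above the interval. Within 250 bp, MEF SG was at 42.9% (28.0 to 59.1) beside 64.7%, a share above its interval. The intervals cover counting error only, and summits of 1 gene are not independent.

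Stitching H3K27ac summits at the default distance of the ROSE method gave clusters whose summed strength was ranked, and those above the tangent point of the ranked curve were called super-enhancers. The strongest cluster over the Prrx1 window was a super-enhancer in 6 of 7 libraries, with rank 126 of 18313 in MEF WT, 144 of 13518 in MEF KI, 1153 of 17687 in MEF SG, 135 of 18506 in MMTV-CAF WT, 78 of 19061 in MMTV-CAF SG and 319 of 18052 in wound-healing SG. In wound-healing WT it ranked 985 of 13901, below the 779 super-enhancers. In MEF KI, MEF SG and wound-healing WT this cluster left out the summits near the first TSS and spanned 18.8, 20.1 and 12.2 kb. In the other libraries it reached them and spanned 40.0 to 50.0 kb, so these ranks compare different stretches. At Prrx2 the strongest cluster was a super-enhancer in MEF WT (rank 541), MEF SG (298), MMTV-CAF WT (160) and MMTV-CAF SG (16). In MEF SG this cluster ran from Prrx2 into Ptges, past the window, over 39.8 kb with 12 summits. In MEF WT it stayed within the window, over 21.5 kb with 8 summits. In MMTV-CAF WT this cluster lay beyond the 3′ end of Prrx2 and across Ptges, over 81.7 kb with 21 summits. In MMTV-CAF SG it ran over 125 kb with 34 summits, from inside Asb6 across the whole of Prrx2 and Ptges, so that these genes share 1 cluster. Shox2, Alx1 and Alx4 had no super-enhancer in any library, and super-enhancers were 4.95% to 7.70% of clusters.

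PRRX1 itself had 19 summits in the windows of 3 of the 5 genes. Prrx1 had 3 in the MEF list, 5 in that of MMTV-CAF and 2 in that of wound-healing fibroblasts, Prrx2 had 1, 2 and 2, and Shox2 had 0, 3 and 1. Thus 2, 3 and 3 genes had a summit, in the same order of types, against 7.05%, 22.1% and 16.8% of all genes. These shares grow with window length, 88.6 kb for Prrx1 and 66.3 kb for Prrx2. Per Mb of window Prrx1 had 33.9, 56.4 and 22.6 summits, Prrx2 15.1, 30.2 and 30.2, and Shox2 0, 99.9 and 33.3. Over all gene windows it was 1.33, 5.14 and 3.61. With summits of a −log10 p of at least 5, wound-healing fibroblasts had 2 such genes, since Shox2 rested on a summit of 4.50. Alx1 and Alx4 had none, also with 50 kb on each side. No PRRX1 list of a deleted line was used here, and how much of this signal depends on PRRX1 was not tested.

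Joined within 500 bp, the 19 summits made 12 places, of which the upstream windows of Prrx1 and Prrx2 printed above were shared by all 3 types. At Prrx1 the summits lay within 50 bp of each other, 1.18 to 1.23 kb before the first TSS, with a −log10 p of 20.01 for MMTV-CAF, 11.5 for wound-healing fibroblasts and 5.77 for MEF. They ranked 335 of 8000, 554 of 5698 and 2537 of 3048, so the MEF summit was among the weak ones of its list. At Prrx2 the summits lay within 28 bp of each other, with a −log10 p of 33.4 for MMTV-CAF, 26.6 for wound-healing fibroblasts and 18.7 for MEF. They ranked 113 of 8000, 69 of 5698 and 306 of 3048, the strongest PRRX1 summit of the 5 windows in each type.

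The marks around these upstream places differed between the paralogues. At the Prrx2 place an H3K27ac summit lay within 500 bp in 5 libraries. The strongest one had a −log10 p of 41.3 in MEF WT, 21.6 in MEF SG, 17.1 in MMTV-CAF WT, 18.8 in MMTV-CAF SG and a lower 7.57 in wound-healing WT. None was listed there in MEF KI or wound-healing SG, and no library had H3K4me3 over it. At the Prrx1 place an H3K27ac summit lay within 500 bp in MMTV-CAF WT, with 16.7, and in MMTV-CAF SG, with 46.0, and in no other library. H3K4me3 covered it in 4 libraries, MEF WT, MEF SG, MMTV-CAF WT and MMTV-CAF SG.

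The other PRRX1 places were found in fewer types. The exon 1 place of Prrx1 had a summit of 3.60 in MEF, near the lowest value in that list, and 7.12 in MMTV-CAF. A place 50.9 to 51.1 kb after the first Prrx2 TSS, beyond the gene, had 10.2 for wound-healing fibroblasts and 7.12 for MMTV-CAF. The Shox2 intron place had 10.4 for MMTV-CAF and a weaker 4.50 for wound-healing fibroblasts. The Shox2 upstream place, 0.571 kb before its first TSS, had 7.12 and another 3.77 kb before it 6.09, both in MMTV-CAF and inside Rsrc1. In introns of Prrx1 lay 5 summits of a lone type, 12.4 kb after the TSS in MEF (11.3), 5.09, 43.1 and 61.8 kb after it in MMTV-CAF (5.80, 5.11 and 8.57) and 33.0 kb after it in wound-healing fibroblasts (6.32).

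TAATTA, which reads the same on both strands, lay within 100 bp of 11 of the 19 summits, at 6 of the 12 places. These were 4 of the 4 MEF summits, 5 of the 10 from MMTV-CAF and 2 of the 5 from wound-healing fibroblasts, while over the whole lists the share was 69.1%, 35.5% and 41.9%. In the Prrx2 upstream window the letters were centred at -9, -25 and -37 bp from the summits of MMTV-CAF, MEF and wound-healing fibroblasts, along the forward strand, and in the Prrx1 upstream window at 72, 22 and 40 bp. At the Shox2 upstream place they were 1 bp from the summit, and TAAT followed by ATTA after 3 bases was there too, which 1.29% of MMTV-CAF summits had within 100 bp. Both upstream windows and the Shox2 upstream window held the longer palindrome TTAATTAA, a form noticed after the sequences were seen. It lay within 100 bp of 8 of the 19 summits and of 55.0% of all MEF, 14.2% of all MMTV-CAF and 26.4% of all wound-healing summits. In the RefSeq promoters (GRCm38.p6, 250 bases before to 50 after the start), matched for Prrx1, Prrx2 and Shox2, TAATTA was in that of Prrx1 alone, and in 5.29% of 32851 promoters. Alx1 and Alx4 had no entry.

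Among the 28 other paired-type genes listed, 27 were found in the annotation, and most had no mark at their start. An H3K4me3 region lay over a TSS of 7 of them in the MEF WT list, 2 in that of MMTV-CAF WT and 8 in that of wound-healing WT, beside 53.1%, 52.4% and 54.7% of all genes. A PRRX1 summit lay in the window of 1, 2 and 4, beside 7.05%, 22.1% and 16.8%. Uncx, a factor of the axial skeleton, was the one with PRRX1 summits in more than 1 type, with 1 summit for MEF and 3 for each of the other types. Its H3K4me3 was 671 bp in MEF WT and 766 bp in wound-healing WT and was not listed elsewhere. Of those with H3K4me3 in either library, 6 of 7 were narrower or lost and 0 wider for MEF KI, beside 31.1% and 1.88% of all genes. For MEF SG 2 of 7 were narrower and 1 wider, beside 7.58% and 1.66%. For MMTV-CAF SG 0 of 4 were narrower and 2 wider, beside 7.10% and 8.80%. For wound-healing SG 2 of 10 were narrower and 3 wider, beside 5.43% and 9.05%. For H3K27ac, 3 of 7 were lower and 3 higher for MEF KI, beside 35.5% and 20.7%, and 0 of 9 were lower and 4 higher for MEF SG, beside 15.6% and 17.0%. For MMTV-CAF SG 1 of 9 was lower and 5 higher, beside 15.3% and 20.9%, and for wound-healing SG 1 of 10 was lower and 3 higher, beside 13.7% and 22.5%.

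By the log2 of the share of the H3K27ac list total that fell in the window, over the 7 libraries, the genes most like Prrx1 among 10811 with a summit in every library were Dek (r = 0.996), Atxn1 (r = 0.967) and Ppbp (r = 0.959). The r is Pearson's over 7 libraries that share types and list strength, and is given as a description.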

How the data were processed

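Per the study's methods, Trimmomatic trimming, Bowtie alignment to mm9 and removal of duplicates with Picard came before peak calling by MACS2 with the corresponding input as control, in broad mode for H3K4me3. For PRRX1 the methods also name duplicates and an IgG control, and which control its lists used is not clear from them. The deposited H3K27ac and PRRX1 lists give 1-bp summits with a −log10 p-value. The deposited H3K4me3 lists give regions with a score, a fold over input as a ratio, a −log10 p-value and a −log10 q-value. The score column was not used. Whether duplicate PRRX1 ChIPs were pooled is not given in the sources used here. The stated cutoff for summits is a −log10 p of 5, yet the PRRX1 lists go down to 3.00, the H3K27ac lists to 5.00.

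Genes, start sites and exons came from GENCODE vM1 protein-coding genes, and sequences from NCBIM37, whose chromosome ends lay beyond all summit windows. Widths, summed −log10 p, window counts, retention within 500 bp and clusters were computed with Python 3.11.15 and numpy 2.4.6. How often an unchanged gene passes the 1.5-fold limit in these libraries was not tested. With 1 library per group there was no test and no p-value across genes. The members, gene lists and comparisons were chosen with earlier results of these data known. Named other genes had H3K4me3 over 4 kb in a WT list or PRRX1 summits in at least 2 types. Not all genes this rule names are reported here. Clusters were stitched and ranked as ROSE does, on summits rather than reads. Likeness to Prrx1 was Pearson's r of log2 window shares. The 7 inputs were not used.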

Additional observations from a re-analysis of the deposited data

Results flagged for a closer look

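At Prrx2 the SG libraries of 2 fibroblast types differed from WT in opposite directions. Its scaled log2 ratio to WT of the same type for H3K4me3 width was 1.09 for MMTV-CAF SG against -0.84 for wound-healing SG. For summed H3K27ac it was 0.95 for MMTV-CAF SG against -0.90 for wound-healing SG. Without scaling the latter was -0.32, no longer past 1.5-fold. Summits over the neighbouring gene Asb6 made up 73.3% of the wound-healing SG sum. Without them the sum was 21.2 in SG against 65.4 in WT, a scaled log2 ratio of -2.21, and for MMTV-CAF SG that ratio was 1.22. The difference between the types was not tested, since each group had 1 library. MEF SG lay between them for both marks, within 1.5-fold of its WT. Strain, tissue of origin and library all differ between MMTV-CAF and wound-healing fibroblasts and cannot be told apart.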

How the results depend on the processing

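No paired analysis was possible because each group had 1 library and the replicate numbers only name samples, and for the same reason no replicate could be left out. Of 70 alternatives over 19 results, 58 stayed within the limits set, 1.5 times for a count, the Wilson interval for a share, and direction and call for a ratio at Prrx2. A count within its limit can still rest on other genes. Lower or lost H3K27ac pairs numbered 3, and without scaling 4, all of them in MEF KI, where Alx1 alone was called lower after scaling. Pairs of a member and a deleted library with wider or gained H3K4me3 numbered 4, and 1 with regions of a −log10 p of at least 10. Narrower or lost pairs numbered 3, and 1 with a fold of 2. Higher or gained H3K27ac pairs numbered 2, but 5 without scaling and 0 with a fold of 2, where lower or lost pairs went from 3 to 1. The cause was not tested, except that a fold of 2 admits fewer calls by construction. Without flanks, 1 member had a PRRX1 summit in MEF. Retention became 65.2% in MEF KI with lists of equal size (61.2% over all gene windows), 42.9% in MEF SG within 250 bp (64.7%), 76.0% there with summits of a −log10 p of at least 10 (77.2%), and 86.5% in MMTV-CAF SG within 1 kb (77.1%). MMTV-CAF summits with TAATTA numbered 3 of 10 within 50 bp, beside 25.3% of all summits of that list, and 3 held TTAATTAA within 100 bp, beside 14.2%, the latter chosen after seeing the data. Of the Prrx1 calls, the H3K27ac call in MEF SG held in 3 of 8 settings, that in MEF KI in 4 of 8, with the direction turned without scaling, and the H3K4me3 call in MEF KI in 4 of 6. In wound-healing SG, H3K27ac at Prrx2 was called in 6 of 8 settings, and without scaling its ratio of 0.803, which includes the summits over Asb6, was not. Depth could not be read from the lists, so a mark not listed may lie below the threshold.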
